A study of Homo sapiens with 4 samples.

Results

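The cells described here are fibroblast-like mouse host cells of human pancreatic tumours, those with more transcripts of Prg4, Dpt and 6 companion genes than of 8 genes led by Grem1. PANC-1, a human pancreatic ductal adenocarcinoma line, was grown under the skin of nude mice, which lack a thymus, and each of 4 tumour groups gave 1 single-cell RNA library. The groups were control, agrimoniin (an ellagitannin of agrimony), erlotinib (which blocks the kinase of the growth factor receptor EGFR) and a combination of both drugs. All 4 groups carried the same line in the same kind of host, and no dose, time, mouse strain, age or number of tumours per library is named in the labels used here. The series' design text names cyranin where the sample labels name erlotinib, and the labels were followed. A human line in a mouse host lets each transcript be given to tumour or host by its species, but a nude host has few T cells, so its stroma lacks much of what T cells would do.

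Every barcode held transcripts of both species, so its mouse transcripts, called a mouse part, were treated as the host side of that barcode. Filters of at least 500 unique molecular identifiers (UMIs, each a counted transcript molecule), at least 250 detected genes and a mitochondrial share of no more than 25% left 1053 of 1056 mouse parts. Of these, 377 had at least 1% of UMIs from Col1a1, Col1a2 and Col3a1, 366 of them had under 0.2% from the macrophage genes C1qa, C1qb and C1qc, and 347 of those also had fewer than 3 UMIs of the pericyte gene Rgs5. The members were chosen by measured UMIs. Among these 347 fibroblast parts, 98 had a larger UMI sum over Prg4, Efemp1, Ptx3, Sfrp2, Ly6c1, Chl1, Adamts5 and Dpt than over Grem1, C1qtnf3, Col11a1, Col8a1, Lrrc15, Cdh11, Fmod and Col12a1, and are the members. The other sum was larger in 247, called Grem1 parts below, and 2 parts had equal sums. Members numbered 9 in control, 37 with agrimoniin, 28 with erlotinib and 24 with both drugs.

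Fibroblasts build and remodel the collagen-rich matrix, and in pancreatic tumours they are commonly described as contractile myofibroblasts, which lay down matrix next to tumour cells, and as inflammatory fibroblasts, which secrete chemokines, cytokines and complement. Resting connective tissue also holds adventitial fibroblasts around vessels and in fascia, known for Pi16, Cd34, Ly6a and Dpt. Prg4 encodes lubricin, the lubricating proteoglycan of joints and gliding tissue planes. Dpt encodes dermatopontin, a matrix protein that binds decorin. Efemp1 encodes fibulin-3, Ptx3 the soluble pattern-recognition protein pentraxin 3, Sfrp2 a secreted WNT modulator, Ly6c1 a surface protein, Chl1 a cell adhesion molecule and Adamts5 a protease that cuts aggrecan and versican. On the Grem1 side of the rule, Grem1 encodes a BMP antagonist and Lrrc15 is a known marker of myofibroblast-like tumour fibroblasts.

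The 9 control members held 46040 mouse UMIs, against 209448 in agrimoniin, 184269 in erlotinib and 100799 in combination. A gene's level is its share of the summed mouse UMIs of a library's members, given as CPM, and on that scale a single UMI was worth 21.7 CPM in control, 4.77 with agrimoniin, 5.43 with erlotinib and 9.92 with both drugs. The control level of a gene is the least precise of the 4. A member held 1399 to 13578 mouse UMIs (median 4743.5) and 714 to 3886 genes (median 1950.5). The median mitochondrial share of members was 8.01% in control, 4.29% with agrimoniin, 4.49% with erlotinib and 6.12% with both drugs, and in Grem1 parts 3.70%, 4.21%, 5.08% and 3.65% in the same order. No barcode sequence occurred in more than 1 library. With 1 library per group no difference between treatments has a replicate check, none was tested, and each compares 2 libraries. Intervals are 95% and cover counting error only.

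The label was checked against markers. All 10 of 10 fibroblast markers (among them Pdgfra, Lum and Mmp2) were found in members, with a summed level of 6496 to 8651 CPM per library, beside 6583 to 8460 CPM in Grem1 parts and 66.2 CPM in 509 macrophage parts (at least 0.2% C1q UMIs and under 1% of the 3 collagens). Macrophage markers summed to 76 to 188.5 CPM in members against 26971 CPM in macrophage parts, and 1 of the 10, Mrc1, was at 0. Monocyte markers summed to 497 to 999 CPM, nearly all of it Plac8, while Ccr2 and Chil3 were at 0. Of 6 endothelial markers, Emcn and Cldn5 were at 0 and the sum was 19.1 to 65.2 CPM. Of 7 pericyte and smooth muscle markers, Des, Mcam, Higd1b and Notch3 were at 0 and the sum was 0 to 43.0 CPM. All 5 Schwann and all 4 B cell markers were at 0. Of 5 mesothelial markers 4 were at 0. Of 5 markers of tendon and joint lining, Scx and Tnmd were at 0. The other 3, Thbs4, Clic5 and Comp, had UMIs in members, and the list summed to 0 to 105.0 CPM per library. In agrimoniin Thbs4 had 21 UMIs, 66.7% of them in 1 member. The members carried the markers of fibroblasts, and the word inflammatory is taken up with the cytokine genes below.

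**Figure D1:**
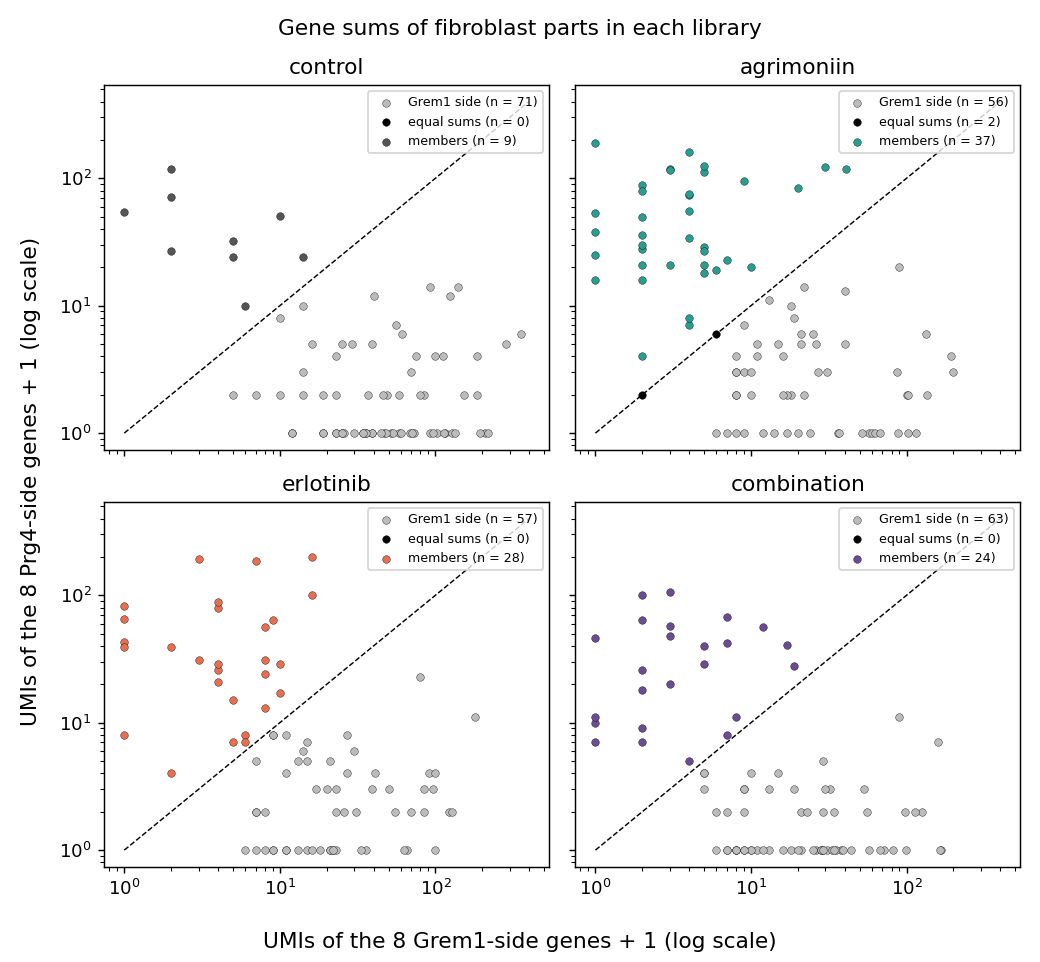
Summed UMIs of the 8 Prg4-side genes (vertical) and the 8 Grem1-side genes (horizontal) in each fibroblast part, 1 panel per library, both axes logarithmic after adding 1 UMI. Coloured points above the dashed line of equality are the 98 members, grey points are the 247 Grem1 parts, and few points of either side lie near the line.

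The sum over the 8 Prg4-side genes was 3 to 199 UMIs in members (median 30.5) and the sum over the 8 Grem1-side genes was 0 to 40 (median 3). The parts nearest the threshold were few. In 3 members the margin was 1 UMI, with sums of 6 against 5, 7 against 6 and 4 against 3, and in 4 Grem1 parts it was 1 UMI the other way. Under a margin of 3 UMIs stood 7 members and 9 Grem1 parts. Both parts with equal sums were in the agrimoniin library, at 5 and at 1 UMI on each side.

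These 8 genes chose the members, so their levels are a description. Sfrp2 had a UMI in 93.9% of members, Ly6c1 in 86.7%, Adamts5 in 83.7%, Efemp1 in 78.6%, Ptx3 in 74.5%, Chl1 in 72.4%, Dpt in 68.4% and Prg4 in 67.3%. In macrophage parts, which should lack them, the shares were 0.20% for Efemp1 to 2.75% for Sfrp2. Those parts were chosen for low collagen and held fewer UMIs (median 3478). Their shares therefore cannot set the level that free RNA gives in fibroblast parts. All 8 genes were found together in 30 members, at least 5 in 80 and at least 2 in 97. Sfrp2 contributed the most UMIs in 38 members, Ly6c1 in 17, Ptx3 in 16, Prg4 in 15, Adamts5 in 7, Chl1 in 4 and Efemp1 in 1, and Dpt in none. The naming pair was not always together. Prg4 and Dpt were both found in 52 members, Prg4 alone in 14, Dpt alone in 15 and neither in 17.

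Across libraries the naming genes had these levels. Prg4 stood at 955.7 CPM in control (Poisson interval 694.4 to 1283.0), 1814 with agrimoniin (1636 to 2006), 1541 with erlotinib (1367 to 1731) and 1637 with both drugs (1397 to 1907). One control member held 59.1% of the 44 Prg4 UMIs of that library. Dpt stood at 543.0 CPM in control (351.4 to 801.6), 615.9 with agrimoniin (514.2 to 731.8), 352.7 with erlotinib (272.2 to 449.6) and 426.6 with both drugs (308.7 to 574.6), and the control interval overlaps those of all 3 treated libraries. Ptx3 stood at 434.4 CPM in control and 483.0 in erlotinib, and at 1504 in agrimoniin and 1200 in combination. Its level in agrimoniin was 3.46-fold that in control (2.20 to 5.75) and in combination 2.76-fold (1.71 to 4.68). In control, 1 member held 45% of the 20 Ptx3 UMIs. Adamts5 stood at 1368 CPM in control, 1270 with agrimoniin, 760 with erlotinib and 714 with both drugs. In control, 58.7% of the Adamts5 UMIs came from 1 member, and with each control member left out in turn the log2 ratio to control changed sign for agrimoniin (-0.30 to 0.93), erlotinib (-1.03 to 0.20) and combination (-1.12 to 0.11). Ly6c1 had the smallest ratio between its highest and lowest level, 1803 CPM in control and 1270 in combination. Sfrp2 lay between 1523 CPM in agrimoniin and 2237 in control, Efemp1 between 668 in erlotinib and 1079 in agrimoniin, and Chl1 between 478 in control and 885 in erlotinib.

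Within the members, some genes were found at high levels in the same parts. Over the 98 members, which share libraries and differ in depth, the Spearman correlation of CPM was 0.69 between Efemp1 and Ly6c1, 0.55 between Prg4 and the complement gene C3, 0.51 between Prg4 and the adventitial gene Pi16 and 0.53 between Ly6c1 and Pi16. A second set ran together more loosely, with 0.41 between Has1 and Ccl2, 0.38 between Has1 and Il6 and 0.34 between Ccl2 and Il6. Ccl2 had values below 0 with Prg4 (-0.23) and Ly6c1 (-0.30), while Has1 and Il6 had values near 0 with Prg4 (0.051 and 0.027). These are sparse counts, and the values are given as a description only.

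Members made up 11.25% of fibroblast parts in control (9 of 80, exact Clopper-Pearson interval 5.28% to 20.3%), 38.9% with agrimoniin (37 of 95, 29.1% to 49.5%), 32.9% with erlotinib (28 of 85, 23.1% to 44.0%) and 27.6% with both drugs (24 of 87, 18.5% to 38.2%). The control interval ends below the lower limits of agrimoniin and erlotinib and overlaps that of combination. Of all kept mouse parts, members were 4.46% in control (2.06% to 8.29%), 12.5% with agrimoniin (8.93% to 16.8%), 9.18% with erlotinib (6.19% to 13.0%) and 9.64% with both drugs (6.27% to 14.0%). Here the control interval ends below the lower limit of agrimoniin and overlaps those of the other 2 libraries. Grem1 parts numbered 71, 56, 57 and 63 in control, agrimoniin, erlotinib and combination. Parts thinned to 1500 UMIs, which removes the difference in depth, gave 9.76%, 41.7%, 32.2% and 25.6% of fibroblast parts. These shares rest on 1 library each.

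**Figure D2:**
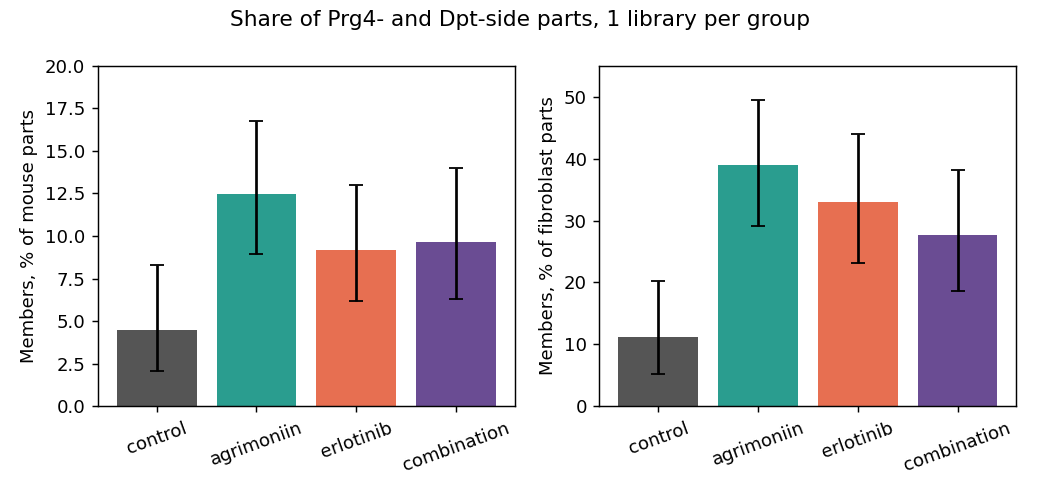
Members as a percentage of kept mouse parts (left) and of fibroblast parts (right) in each library, with exact 95% binomial intervals as error bars. Control has the lowest share on both axes (4.46% and 11.25%) and agrimoniin the highest (12.5% and 38.9%).

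Against the Grem1 parts of the same library, members had higher levels of adventitial, complement and decorin-family genes and lower levels of contractile and some collagen genes. Since the rule split the parts by this contrast, it is a description. Of 1689 mouse genes with a mean of at least 100 CPM, 144 (8.53%) were at least 2-fold apart in the same direction in all 4 libraries, 78 higher (4.62%) and 66 lower (3.91%). Outside the rule's genes these were 69 and 59 of 1671, and the median log2 ratio over all tested genes was -0.03. Log2 ratios were taken after adding 10 CPM, which makes the difference of low genes look smaller.

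The highest ratios belonged to matrix, surface and complement genes. Tnxb, which encodes the matrix protein tenascin-X, stood at 294.1 CPM over all members and 2.69 CPM over all Grem1 parts, with a log2 ratio of 4.14 to 4.76 over the 4 libraries. Cd34, a surface sialomucin of progenitors, vessels and adventitial fibroblasts, stood at 423.6 against 8.73 CPM (4.03 to 5.48). C3, the central complement protein, stood at 523.5 against 13.4 CPM (3.82 to 5.32). Mmp3, the protease stromelysin-1, stood at 728.9 against 21.5 CPM (3.62 to 4.97). Dcn, which encodes the collagen-binding proteoglycan decorin, stood at 2242 against 151.1 CPM (3.35 to 4.42). The other named genes on this side were Lgi2, the chemokine-scavenging receptor gene Ackr3, the guanine deaminase gene Gda, the interferon-inducible Ifi205, the proteoglycan gene Ogn, Pi16, the TGF-beta co-receptor gene Tgfbr3, the complement gene C4b, the surface antigen gene Ly6a and Gas7, with lowest ratios over the libraries from 2.40 (Gas7) to 3.07 (Lgi2). Ly6a was found in 95.9% of members and 62.3% of Grem1 parts. In macrophage parts Gda stood at 163.0 CPM, C4b at 121.8, Ly6a at 820.2, C3 at 54.5 and Gas7 at 50.9. Each of these was higher there than in Grem1 parts, so they are shared with another host cell type.

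On the lower side, Spp1, which encodes osteopontin, stood at 72.1 CPM in members and 1739 in Grem1 parts (log2 ratio -5.25 to -4.10). Tagln, a contractile protein gene, stood at 49.9 against 1259 CPM (-7.38 to -3.61) and Acta2, the smooth muscle actin gene that defines myofibroblasts, at 79.5 against 1232 CPM (-5.34 to -2.79). Inhba, which encodes the activin A subunit, stood at 94.3 against 1367 CPM and Wnt5a, a WNT ligand gene, at 9.25 against 269.9 CPM. Sparcl1, Spon1, Serpine2, Nrep and Pdgfa were the other named genes on this side. Every one of the 25 named genes kept its side of 0 in all 4 libraries, as the rule for naming them required.

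**Figure D3:**
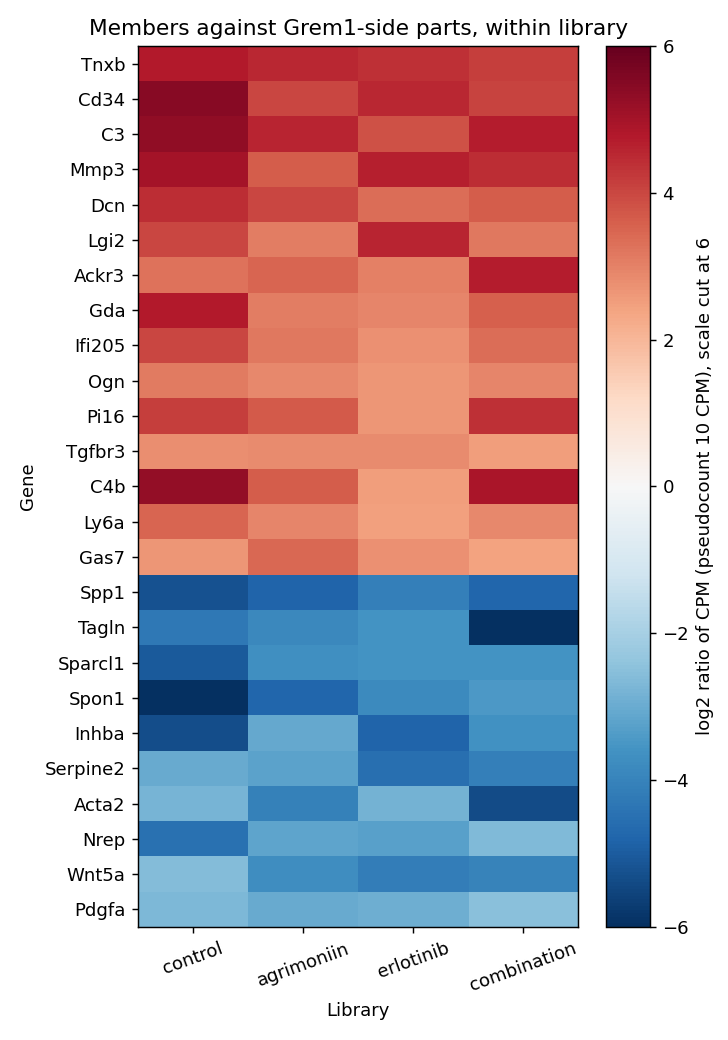
Log2 ratio of CPM between members and Grem1 parts within each library (columns), after adding 10 CPM, for the 15 genes named as higher and the 10 named as lower (rows), red higher in members and blue lower, with colours saturating at 6. Rows keep 1 colour across libraries, from Tnxb (4.14 to 4.76) at the top to Pdgfa at the bottom.

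The gene lists gave the same split, beside the 4.62% higher and 3.91% lower of all tested genes. Of 8 measured adventitial genes 5 were at least 2-fold higher in all 4 libraries (Ackr3, Cd34, Col14a1, Ly6a and Pi16) and none lower, with a median log2 ratio of 2.70. Of 8 complement and acute phase genes 5 were higher (C1ra, C1s1, C4b, Cfb and C3), with a median of 2.49. C1ra and C1s1 encode the proteases that start the classical complement pathway and Cfb a protease of the alternative pathway. Of 13 cytokine and chemokine genes 3 were higher, the CXCR4 ligand gene Cxcl12, the monocyte attractant gene Ccl2 and the alarmin gene Il33, with a median of 1.28. The summed level of that list was 8406 to 18294 CPM in members of a library and 4091 to 6701 CPM in its Grem1 parts. Of 6 hyaluronan matrix genes 2 were higher, the hyaluronan synthase gene Has1 and Tnfaip6, whose product transfers heavy chains onto hyaluronan.

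Small proteoglycan genes were higher in 4 of 11 (Prelp, Dcn, Lum and Ogn), with the elastic fibre gene Mfap4 lower. Oxidative stress genes were higher in 2 of 6, both metallothioneins (Mt1 and Mt2). Among growth factors Igf1 and Igfbp6 were higher and Igfbp3 and Vegfa lower, of 10 measured. Myofibroblast and contractile genes were lower in 9 of 12 (Tpm2, Tnc, Spon1, Tagln, Tpm1, Ccn2, Cnn2, Inhba and Acta2), with a median of -2.62. Collagens and cross-linking genes were lower in 4 of 19 (Col6a3, Col15a1, Col4a2 and Col6a1) and higher in none, with a median of -1.06. That list leaves out the 3 collagens of the rule. Over all members Col3a1 stood at 18081 CPM, against 7572 CPM over all Grem1 parts. Col1a1 stood at 38181 against 42352 CPM and Col1a2 at 14801 against 16641 CPM. Hypoxia response genes were lower in 3 of 8 (Bnip3, Egln1 and Vegfa) and the glycolysis gene Pgk1 was lower, 1 of 11. Proteases and inhibitors held Htra3 and Mmp3 higher and Serpine2, Mmp13 and Mmp14 lower, of 16. Dusp6, a feedback phosphatase gene of ERK signalling, was lower, 1 of 7. The cell cycle gene Top2a was higher, 1 of 3, at 89.3 to 217.1 CPM in members, and all 8 of its control UMIs were in 1 member. No measured NF-kB target, immediate early or heat shock gene, interferon response gene or EGF family gene passed in all 4 libraries in either direction, with 8, 17, 8 and 2 genes measured.

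The next 3 comparisons set a treated library against the same 9 control members, so a deviation of that small group enters all of them. Members of the agrimoniin library had higher levels of chemokine, hyaluronan, NF-kB target and ERK target genes than control members. Of 1679 genes with a mean of at least 100 CPM, 352 (21%) were at least 2-fold apart, 201 higher (12%) and 151 lower (8.99%). For 235 of the 352 the counting interval of the ratio excluded 1. Scaling by trimmed means (TMM) moved the median of all genes from -0.02 to 0.28 and the split to 295 higher and 61 lower.

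Ccl2, the main attractant of monocytes, was found at 1781 CPM in control members (Poisson interval 1417 to 2211), 4837 with agrimoniin (4543 to 5144), 3593 with erlotinib (3324 to 3877) and 5546 with both drugs (5095 to 6025). All 3 treated libraries stood above control and their intervals did not meet it. A UMI of Ccl2 was found in 5 of 9 control members, 35 of 37 in agrimoniin, 26 of 28 in erlotinib and 23 of 24 in combination. After thinning every part to 1500 UMIs the shares were 44.4%, 91.9%, 89.3% and 95.7%. The level was 2.72-fold that of control in agrimoniin (2.17 to 3.44), 2.02-fold in erlotinib (1.60 to 2.57) and 3.11-fold in combination (2.47 to 3.98). One control member held 43.9% of that library's Ccl2 UMIs, and with each control member left out in turn the log2 ratio in erlotinib ran from 0.80 to 1.55. In Grem1 parts Ccl2 stood at 688 CPM in control and at 1067 to 1486 in the treated libraries.

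The chemokine genes Ccl7 and Cxcl1 had the same order. Ccl7, another monocyte attractant gene, stood at 695 CPM in control, 1886 with agrimoniin, 1737 with erlotinib and 2599 with both drugs. Cxcl1, a neutrophil attractant gene, stood at 1694, 4402, 3435 and 5030 CPM in that order. Cxcl2, a close relative, was at 0 UMIs in control members and at 553.8, 493.8 and 297.6 CPM in the treated libraries. Taking 3 counts as the floor of the control library, that is at least 8.50-fold, 7.58-fold and 4.57-fold higher. Of the cytokine and chemokine list, 5 of 12 measured genes were at least 2-fold higher in agrimoniin (Ccl2, Ccl7, Cxcl1, Cxcl2 and Cxcl5), beside 12% of all genes, and 1 was lower. In agrimoniin 1 member held 50% of the 40 Cxcl5 UMIs. For Cxcl2 in combination the largest member held 40% of 30 UMIs. The list's median log2 ratio was 0.74 beside -0.02 over all genes, and 0.46 in Grem1 parts.

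The lower gene was Cxcl12, the chemokine that holds leukocytes and progenitors in stroma. It stood at 738.5 CPM in control, 257.8 with agrimoniin, 542.7 with erlotinib and 138.9 with both drugs. Control was 2.86-fold higher than agrimoniin (1.81 to 4.48) and 5.32-fold higher than combination (2.78 to 10.7). With each control member left out in turn the log2 ratio of combination to control stayed between -2.62 and -2.04. Il6, the cytokine most often used to name inflammatory fibroblasts, was low in all libraries, with 6, 43, 19 and 26 UMIs in control, agrimoniin, erlotinib and combination, or 130.3, 205.3, 103.1 and 257.9 CPM, and its intervals against control included 1 in all 3 treated libraries.

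Genes of hyaluronan, the sugar polymer that swells the matrix of pancreatic tumours, were higher in 3 of 5 measured genes in agrimoniin, with a median log2 ratio of 1.30 (1.08 in Grem1 parts). Has1 stood at 282.4 CPM in control, 988.3 with agrimoniin, 369.0 with erlotinib and 1012 with both drugs. The first and the third values lie close together and the other 2 are about 3.5-fold higher, 3.50 in agrimoniin (2.00 to 6.68) and 3.58 in combination (2.00 to 6.96). In control 1 member held 61.5% of the Has1 UMIs. Tnfaip6 stood at 1151, 3318, 2898 and 3294 CPM in the same order. Cd44, the hyaluronan receptor gene, stood at 499.6, 1246, 808.6 and 1151 CPM.

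NF-kB targets were at least 2-fold higher in 5 of 9 measured genes in agrimoniin (Icam1, Nfkb1, Nfkbia, Socs3 and Tnfaip2) and lower in none. Their median log2 ratio was 1.10, beside 0.71 in Grem1 parts. Nfkbia, the inhibitor gene that NF-kB induces to end its own signal, stood at 847.1 CPM in control, 1829 with agrimoniin, 1107 with erlotinib and 2292 with both drugs. The ratio to control was 2.16-fold in agrimoniin (1.55 to 3.08), while the interval in erlotinib (1.31-fold, 0.924 to 1.89) included 1. Targets and feedback genes of ERK, the kinase that EGFR signalling drives, were higher in 3 of 4 (Fosl1, Phlda1 and Spry2). Their median was 1.65, beside 0.76 in Grem1 parts. Fosl1, an AP-1 transcription factor gene, rested on 1 UMI in control and 42 in agrimoniin, and Spry2, a feedback inhibitor gene, on 2 and 49. Proteases and inhibitors were higher in 6 of 15 and lower in 1, with a median of 0.77, beside 0.15 in Grem1 parts. Plau, the urokinase gene, stood at 173.8 CPM in control and 931.0 in agrimoniin, 5.36-fold (2.67 to 12.6), and Timp1, a metalloproteinase inhibitor gene, at 1086 and 382.0 CPM. In control, 58.0% of the Timp1 UMIs were from 1 member.

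**Figure D4:**
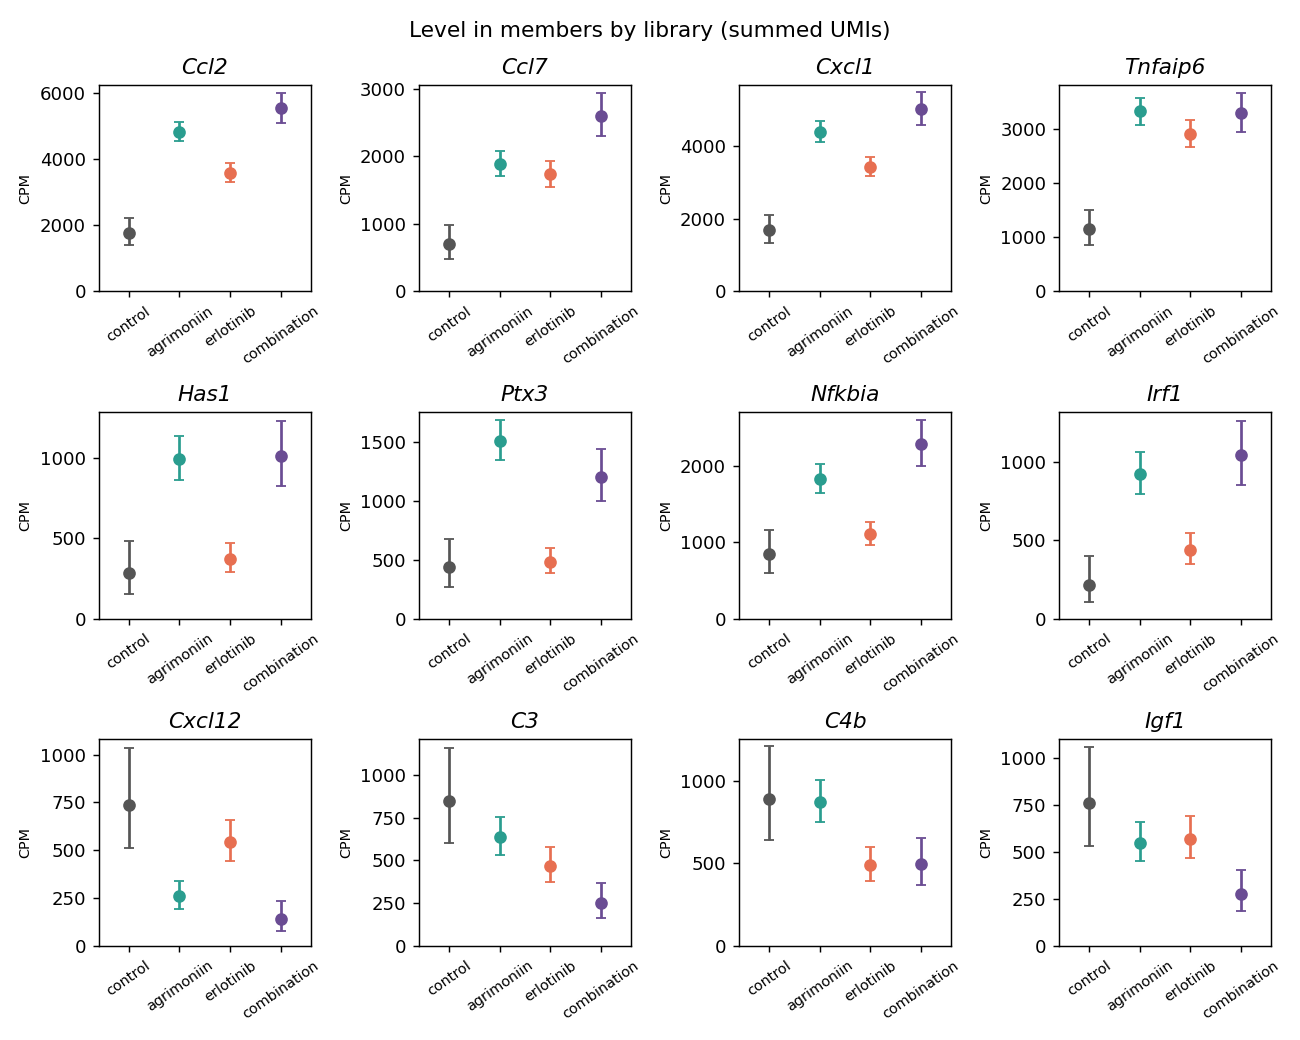
Level of 12 genes in the summed members of each library, in CPM on linear axes from 0, with exact Poisson 95% intervals as error bars. Ccl2, Ccl7, Cxcl1 and Tnfaip6 are higher in all 3 treated libraries than in control. Has1, Ptx3, Nfkbia and Irf1 have their highest levels in agrimoniin and combination, and Cxcl12 is lowest in combination (138.9 CPM). Ptx3 is a gene of the rule that chose the members, so its levels are a description.

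By size of ratio, the genes named as higher in agrimoniin than control were Igfbp5, Noct, Vegfa, Egr3, Hk2, Gna13, Zfp36l1, Socs3, Fosl1 and Sod2. For 7 of them the control count was 1 UMI. The better counted ones were Zfp36l1, which encodes an RNA-binding protein that shortens the life of cytokine messages, at 173.8 CPM in control (8 UMIs) and 1241 in agrimoniin (260 UMIs), 7.14-fold (3.57 to 16.7), and Hk2, the gene of the hexokinase that starts glycolysis, at 65.2 CPM (3 UMIs) and 768.7 CPM (161 UMIs), 11.8-fold (3.97 to 57.8). The genes named as lower were Tex14, Aimp1, Zfp652, Tpm1, Cfl2, Rcn2, Ppig, Col27a1, Rbm8a and Hsp90aa1. Of these Hsp90aa1, a chaperone gene of the heat shock response, had the most UMIs, at 5560 CPM in control and 2201 in agrimoniin, and control was 2.53-fold higher (2.16 to 2.95). Hspa1a, another heat shock gene, stood at 3866 CPM in control, 878.5 with agrimoniin, 2952 with erlotinib and 1111 with both drugs. Hspb1 followed with 3193, 1213, 2366 and 873.0 CPM. Hsph1 too was highest in control. Hspa1b and Dnajb1 were instead higher in erlotinib, on 427 and 174 of 184269 UMIs. In control they rested on 82 and 28 of 46040 UMIs. Hspa8 had similar levels in all 4 libraries. Of the 4 libraries, control members had the highest levels of Hsp90aa1, Hspa1a and Hspb1 and the highest median mitochondrial share (8.01%). The part of either in the other differences was not tested.

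Members of the erlotinib library had higher levels of chemokine genes than control members. Of 1654 genes, 268 (16.2%) were at least 2-fold apart, 126 higher (7.62%) and 142 lower (8.59%), and the interval excluded 1 for 151. The median of all genes moved from -0.08 to 0.21 under TMM scaling, with 203 higher and 51 lower. Cytokine and chemokine genes were higher in 6 of 12 (Ccl11, Ccl2, Ccl7, Cxcl1, Cxcl2 and Saa3) and lower in none. Their median log2 ratio was 0.84, beside 0.51 in Grem1 parts. Saa3, an acute phase protein gene, stood at 21.7 CPM in control (1 UMI), 148.0 with agrimoniin, 2372 with erlotinib and 873.0 with both drugs. It was found in 15.3% of all members, and 1 member held 39.6% of the erlotinib and 81.8% of the combination UMIs. NF-kB targets gave 2 of 7 higher, with a median of 0.00 that changed sign between -0.12 and 0.94 over the alternative settings. Hyaluronan genes gave 1 of 4 (Tnfaip6), with a median of 0.53, and complement genes gave 0 of 8 in either direction, with a median of -0.62. In Grem1 parts the medians of the NF-kB, hyaluronan and complement lists were 0.18, 0.41 and 0.49. Glycolysis genes gave 1 of 10 (Hk2) at least 2-fold higher, with all 10 above control and a median of 0.72, beside -0.29 in Grem1 parts. Of the EGF family only 2 genes were measured, 0 higher and 1 lower (Hbegf), with a median of -1.30, beside 0.17 in Grem1 parts. Only 2 ERK targets were measured, both above control and 0 past 2-fold, with a median of 0.63, beside 0.68 in Grem1 parts. The whole ERK list summed to 1742 CPM against 890.5 CPM in control.

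Dcn and Lum were the proteoglycan genes at least 2-fold lower in erlotinib than in control, Dcn at 1601 against 3367 CPM. Egfr, the target of erlotinib, rested on 9, 47, 18 and 24 UMIs in control, agrimoniin, erlotinib and combination, or 195.5, 224.4, 97.7 and 238.1 CPM, and its interval in erlotinib against control included 1 (0.50-fold, 0.213 to 1.26). Mouse Ldha, the lactate dehydrogenase gene, rested on 6, 23, 46 and 5 UMIs, or 130.3, 109.8, 249.6 and 49.6 CPM. The genes named as higher in erlotinib were Vegfa, Tcim, 9330111N05Rik, Noct, Tfg, Naa50, Ctsh, Plagl1, Fam120a and Prkar1a, each with 1 to 3 UMIs in control. Those named as lower were Cfl2, Tnfrsf1a, Zfp652, Clip1, Tex14, Aimp1, Olfml2b, Smarca2, Hnrnpu and Cops2. Of these Hnrnpu, a nuclear RNA-binding protein gene, had the most UMIs, with 803.6 CPM in control against 369.0.

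The combination library had the most genes past 2-fold of the 3 comparisons with control. Of 1619 genes, 415 (25.6%) were at least 2-fold apart, 219 higher (13.5%) and 196 lower (12.1%), and the interval excluded 1 for 244. The median of all genes moved from -0.06 to 0.22 under TMM scaling, with 294 higher and 90 lower. Cytokine and chemokine genes were higher in 7 of 13 (Ccl11, Ccl2, Ccl7, Cxcl1, Cxcl2, Lif and Saa3) and lower in 1 (Cxcl12), with a median log2 ratio of 1.56 beside 0.34 in Grem1 parts. One member held 80.8% of the Lif UMIs in combination. NF-kB targets were higher in 6 of 7 (median 1.43, Grem1 parts 0.69), hyaluronan genes in 3 of 4 (median 1.35, Grem1 parts 0.50) and ERK targets in 4 of 5 (median 1.82, Grem1 parts 1.02). Whether members and Grem1 parts differed in these medians was not tested. Irf1, an interferon and NF-kB response factor gene, stood at 217.2 CPM in control, 921.5 with agrimoniin, 439.6 with erlotinib and 1042 with both drugs, 4.80-fold over control in the last (2.51 to 10.3). Interferon response genes were higher in 5 of 10, of which Rsad2 had 96.0% of its UMIs in 1 member, and the list's median of 0.59 ran from -0.12 to 1.12 over the alternative settings.

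The levels of C3, Igf1 and Igfbp4 were lowest in combination. C3 stood at 847.1 CPM in control, 635.0 with agrimoniin, 466.7 with erlotinib and 248.0 with both drugs, and control was 3.42-fold higher than combination (2.02 to 5.89). In control, 69.2% of the C3 UMIs came from 1 member, and with each control member left out in turn the log2 ratio of combination to control ran from -1.92 to -0.29. Those of agrimoniin (-0.60 to 1.03) and erlotinib (-1.04 to 0.60) changed sign. Igf1, which encodes a growth factor, stood at 760.2, 549.1, 569.8 and 277.8 CPM, and control was 2.74-fold higher than combination (1.62 to 4.67). Igfbp4, which encodes a binding protein of that factor, stood at 5300, 3285, 3191 and 1865 CPM, and control was 2.84-fold higher than combination (2.34 to 3.46). Pi16 stood at 477.8, 501.3, 401.6 and 267.9 CPM, but 86.4% of its control UMIs were from 1 member and with each control member left out in turn its log2 ratio ran from -0.15 to 2.57 for agrimoniin, -0.46 to 2.26 for erlotinib and -1.03 to 1.69 for combination, all of which change sign. The adventitial list had a median of -0.34 in combination, with 1 of 11 higher and 1 lower.

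The genes named as higher in combination than control were Baz2b, Vegfa, Noct, Hk2, Zfp36l1, Egr3, Cpeb4, Sod2, Bcl2l11 and Sox4. Baz2b was at 0 UMIs in control and 218.3 CPM in combination, at least 3.35-fold higher against the floor of 3 control counts. Vegfa, the main angiogenic factor gene, had 1 UMI in control (21.7 CPM) and stood at 372.4 CPM in agrimoniin, 407.0 in erlotinib and 545.6 in combination, with a ratio in combination of 25.1 and an interval from 4.32 to 1010. In Grem1 parts Vegfa was at 807 to 1435 CPM in every library. Zfp36l1 stood at 1944 CPM in combination, 11.2-fold over control (5.57 to 26.3). Those named as lower were Ppig, Rab10, Olfml2b, Cfl2, Zfp652, Samhd1, Tex14, Hsp90aa1, Tnfrsf1a and Rpl7. Tnfrsf1a, the main receptor gene of TNF, had 8 UMIs in control and 5 in combination.

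**Figure D5:**
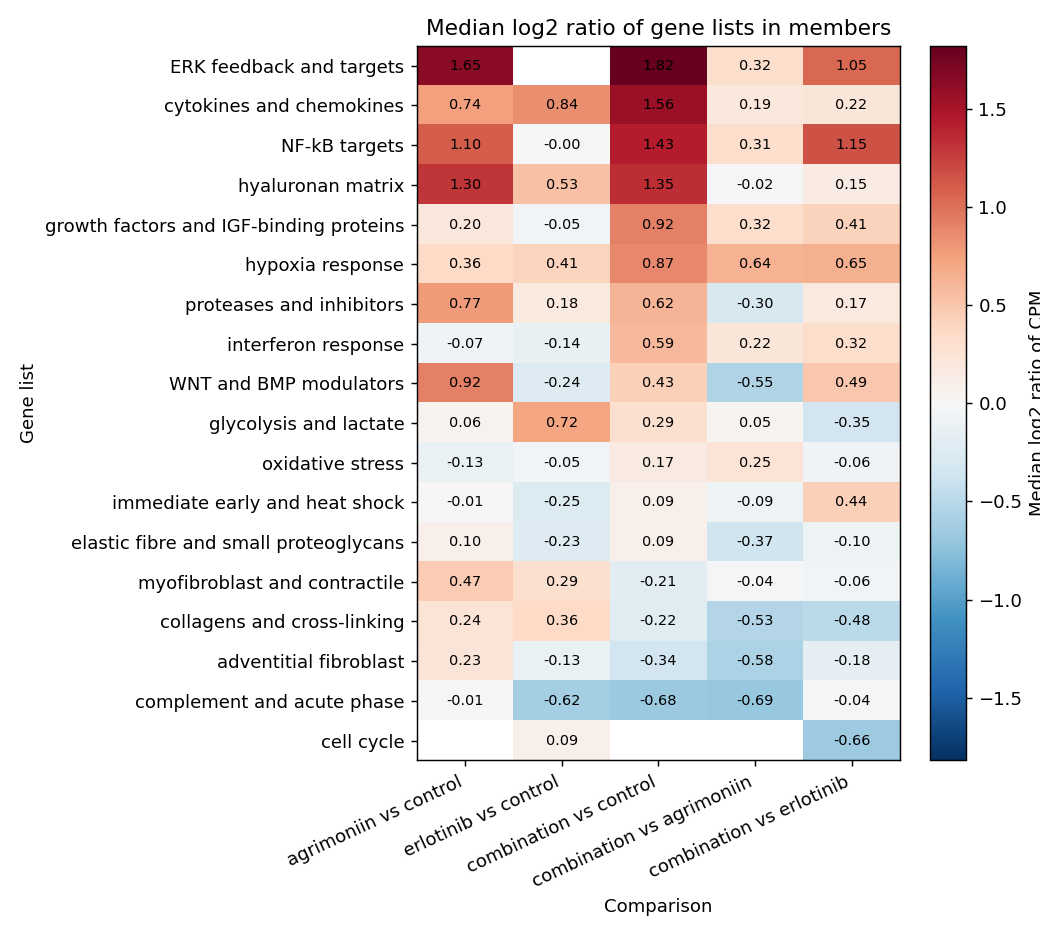
Median log2 ratio of CPM in members (after adding 10 CPM) for each gene list with at least 4 measured genes, in 5 comparisons, red higher and blue lower in the first-named library; blank cells had fewer than 4 measured genes. ERK, cytokine, NF-kB and hyaluronan lists have medians above 1 in combination against control (1.82, 1.56, 1.43 and 1.35), and the NF-kB median is 0.00 in erlotinib against control.

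Comparisons of combination with either drug alone had more members on both sides, and they share the combination members. Against agrimoniin, 133 of 1634 genes (8.14%) were at least 2-fold apart, 59 higher (3.61%) and 74 lower (4.53%), and for 124 of them the interval excluded 1. NF-kB targets were higher in 0 of 11 and lower in 1 (Vcam1), and hyaluronan genes were higher in 0 of 7 and lower in 1 (Itih5). Ccl2 was 1.15-fold higher in combination (1.03 to 1.27), Has1 1.02-fold (0.800 to 1.30) and Tnfaip6 0.993-fold (0.868 to 1.13). Complement genes had a median of -0.69, with C3 the 1 of 8 past 2-fold, where agrimoniin was 2.56-fold higher (1.66 to 4.10). The genes named as lower in combination were Slc4a4, Lama2, Igfbp5, Sema3c and Anxa3. Sema3c, which encodes a secreted guidance factor, and Anxa3 are on the adventitial list, and agrimoniin was 7.46-fold (2.77 to 28.2) and 7.06-fold (2.26 to 35.5) higher. Those named as higher were Bcl2l11, Ash1l, Zfp281, Tpm1 and Rasl11b, and Bcl2l11, which encodes the pro-apoptotic protein BIM, was 3.12-fold higher (1.59 to 6.28).

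Against erlotinib, 240 of 1603 genes (15%) were at least 2-fold apart, 148 higher (9.23%) and 92 lower (5.74%), and for 232 the interval excluded 1. NF-kB targets were at least 2-fold higher in 6 of 8 (Bcl3, Icam1, Nfkbia, Nfkbiz, Socs3 and Tnfaip3), with a median of 1.15 beside -0.01 over all genes. The median ran from 1.00 to 1.21 over the alternative settings and was 0.79 in Grem1 parts. ERK targets were higher in 3 of 5 (Fosl1, Ier3 and Spry2), with a median of 1.05. Fosl1 stood at 297.6 CPM in combination and 70.5 in erlotinib, 4.22-fold (2.14 to 8.81), and Spry2 at 277.8 and 114.0 CPM, 2.44-fold (1.34 to 4.52). Has1 was 2.74-fold higher in combination (2.00 to 3.78), Irf1 2.37-fold (1.76 to 3.21) and Il6 2.50-fold (1.33 to 4.78). Ptx3, a gene of the rule that chose the members, was 2.49-fold higher (1.87 to 3.31). Cxcl12 was lower, and erlotinib was 3.91-fold higher (2.22 to 7.4).

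By size of ratio the genes higher in combination than erlotinib were Nrip1, Socs1, Ndrg1, Ets1 and Zfp36l1. Ndrg1, a gene induced by low oxygen, stood at 238.9 CPM in control, 735.3 with agrimoniin, 260.5 with erlotinib and 1230 with both drugs. Socs1, a feedback inhibitor gene of JAK-STAT signalling, rested on 29 and 9 UMIs. The lower ones were Col15a1, Pclaf, Ldha, Itm2c and Pa2g4. For Ldha, erlotinib was 5.03-fold higher (2.01 to 16.2), on 46 and 5 UMIs. Hspa1a, Hspa1b and Hspb1 were at least 2-fold lower in combination than in erlotinib, while Klf2, Klf4 and Junb were at least 2-fold higher, and of the 17 immediate early and heat shock genes the other 11 were within 2-fold.

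The human UMIs in the same barcodes were not used by the rule, so the tumour RNA beside members could be tested against that beside Grem1 parts. With summed human UMIs of both classes in all 4 libraries and the library as a block, edgeR's quasi-likelihood test called 0 of 7724 human genes (0%) at a Benjamini-Hochberg adjusted p under 0.05, and 321 genes had an unadjusted p under 0.05. DESeq2 called 0 as well, with 71 at an unadjusted p under 0.05. The lowest adjusted p by edgeR was 0.170, for SIK3, a kinase gene, and TGFBI, a TGF-beta-induced matrix protein gene, with log2 differences of 0.80 and 0.63 towards members.

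This count of 0 depended on the filter. When genes with low counts were also tested, edgeR called 14 of 18191, 9 higher and 5 lower beside members. Among them was SERPINA3, with 108 UMIs beside members and 21 beside Grem1 parts, but 83.3% of the 108 came from 1 barcode. TIMP3, a metalloproteinase inhibitor gene, had 1 UMI beside members and 99 beside Grem1 parts, and COL3A1 stood at 72.4 against 146.0 CPM. Without the control library COL3A1 and TIMP3 were called, both lower, after the usual filter. The mouse gene Timp3 stood at 152.0 to 882.9 CPM in members and 772.6 to 1188 in Grem1 parts, ranges that overlap. Whether reads of similar mouse and human genes were assigned to the wrong species was not tested. The median number of human UMIs per barcode was lower beside members in 4 of 4 libraries, with a mean difference of -808.6 ± 551.1 (SD, n = 4) and an exact permutation p of 0.125, two-sided, the smallest that 4 pairs allow. The human share of a barcode was lower in 3 of 4 libraries, with a mean difference of -1.06 ± 2.74 percentage points (SD, n = 4, exact permutation p = 0.625).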

How the data were processed

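Single-cell libraries were made with a 3 prime Chromium kit after collagenase digestion, per the labels' protocols. Cell Ranger, hg38 and mm10 are named, without a tool version, in the submitters' processing notes. The authors deposited raw UMI counts for 68886 human and mouse features in each barcode. Barcodes of 27 bases do not match that kit, which leaves the platform in doubt. Doublets were not called, since every barcode held both species, and a part need not be 1 cell.

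The members and lists were chosen with earlier results of these data known. UMIs were summed over members of a library and scaled to CPM over all their mouse UMIs. Genes with a mean of at least 100 CPM were compared, with a pseudocount of 10 CPM and exact conditional intervals for folds, and called at 2-fold. Named genes were the 10 highest and 10 lowest ratios to control (5 and 5 between treated libraries) with a UMI in at least 20% of members of the higher library and no member holding over 25% of its UMIs, the 15 and 10 with the largest smallest ratio over libraries against Grem1 parts, 8 fixed genes and leading list members. edgeR 4.0.16, with filterByExpr and TMM, and DESeq2 1.42.0 were run in R 4.3.3. The interval and the human test were tested on simulated data. Library is the unit of the human test, and pairs both classes because they share a library. Some genes of the lists are not reported here.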

Additional observations from a re-analysis of the deposited data

How the results depend on the processing

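Most counts and shares stayed within bounds, but a held count did not mean the same genes. For agrimoniin against control, 352 genes were past 2-fold. With at most 10% mitochondrial UMIs 411 were, 195 higher and 216 lower, and 219 of these were among the 352. Without the largest member of each library 347 were, and 249 of these were among the 352. Without each library in turn, 138 to 141 of the 144 genes past 2-fold against Grem1 parts were kept. Member shares moved by less than their intervals under thinning, 2000 UMIs, 10% mitochondrial UMIs, a margin of 3 UMIs and 2% collagens. Of counts of genes and shares, 107 values under alternatives stayed within bounds and 13 moved. With a pseudocount of 50 CPM the counts past 2-fold were 211 for agrimoniin, 133 for erlotinib and 276 for combination against control, and 68 and 130 for combination against agrimoniin and erlotinib. With genes down to a mean of 20 CPM they were 1929, 1950, 2119, 1141 and 1406, with more genes tested. With at most 10% mitochondrial UMIs, which left 6 control members, erlotinib against control gave 454, and the log2 ratio of Ldha in combination against control turned to 0.33. The cause was not tested. Leaving out each control member in turn, an alternative added after the data were seen, gave 334 to 396, 258 to 315 and 413 to 462 against control, including the fit without the largest member of each library, which gave 160 and 295 for combination against agrimoniin and erlotinib. The count against Grem1 parts was 160 to 183 without each library in turn. The human test called 14 genes with no filter on low counts and 0 to 2 without each library. No paired analysis was possible because each treatment has 1 library; for the 2 classes, without the replicate block of libraries the human test again called 0. Of gene list medians 748 stayed and 12 moved, and of single genes 1246 stayed, 25 moved and 1 reversed. The 46040 UMIs of 9 control members limit all 3 comparisons against control.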

Other observations

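Levels in members by library are given here for some more genes of the lists used above. Postn and Thbs2 encode matricellular proteins, which sit in the matrix and signal to cells. Postn stood at 521.3 CPM in control members, 950.1 in agrimoniin, 640.4 in erlotinib and 1260 in combination, 2.42-fold over control in the last (1.55 to 3.91), while the interval in erlotinib (1.23-fold, 0.787 to 1.99) included 1. Thbs2 stood at 152.0, 582.5, 336.5 and 486.1 CPM, 3.83-fold over control in agrimoniin (1.80 to 9.73). In Grem1 parts both genes were lower in agrimoniin than in control, Postn at 1434 against 2479 CPM and Thbs2 at 1323 against 1745. The difference between the classes was not tested.

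Timp3, whose product stays bound to the matrix and inhibits metalloproteinases, stood at 152.0 CPM in control members, 324.7 in agrimoniin, 385.3 in erlotinib and 882.9 in combination, although 47.2% of the combination UMIs came from 1 member. Timp2 had the opposite order, at 1325, 1232, 477.6 and 347.2 CPM, with 75.4% of the control UMIs in 1 member. Metallothionein gene Mt2 was at 2976 to 3652 CPM in members of every library and at 571.3 to 1218 in Grem1 parts.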
